A study of Mus musculus with 18 samples.

Results

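The transcripts described here encode 5 receptors of the signalling lymphocytic activation molecule (SLAM) family, Slamf1, Slamf6, Ly9, Cd84 and Cd48, and the adaptor SAP, encoded by Sh2d1a. These 6 genes were chosen by name as a family, with earlier results of these data known. All 6 were found among the 15137 genes of the deposited table and passed the minimum level for testing, which 10877 genes reached. RNA sequencing gave their levels in 18 libraries of naive CD4+ T cells from mouse spleen, in 6 groups of 3. The series compares control mice with Creld1 conditional knockout (cKO) mice in which Creld1 is deleted by CD4-Cre, a recombinase that also acts in developing T cells and in the CD8 lineage. Cells of each genotype were taken fresh, kept in culture for 8 h without stimulation, or kept for 8 h with antibodies to CD3 and CD28 at 1 µg/ml. All groups had the C57BL/6J background, and all cells had been sorted from spleen as CD3+CD4+CD25-CD62L+CD44-. No age or sex is given in the labels, and the alleles carried by the control mice are not stated.

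SLAM receptors are immunoglobulin-like proteins on the surface of blood cells. Slamf1 (CD150), Slamf6 (Ly108), Ly9 (CD229) and Cd84 each bind a copy of themselves on a neighbouring cell, whereas Cd48 is held by a lipid anchor, has no signalling tail, and serves as a ligand of Cd2 and Cd244. The tails of the other receptors carry tyrosine motifs that recruit SAP, and SAP in turn brings in the kinase Fyn. Without SAP the same motifs recruit inhibitory phosphatases, and in CD4+ T cells the pathway is known for lasting contacts with B cells, follicular help and early IL-4 production.

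The 5 receptor genes lie in one cluster on chromosome 1, and Sh2d1a lies on chromosome X. In GRCm38 (mm10), with GENCODE M21 annotation, the cluster runs from Ly9 to Slamf6 at chr1:171588624-171953170, a span of 364.5 kb. Ly9 is on the minus strand, and Cd48, Slamf1, Cd84 and Slamf6 follow it on the plus strand, with Slamf7 between Ly9 and Cd48. Sh2d1a occupies chrX:42502453-42529330 on the plus strand. The library kit does not mark strand, and 26.6% of the exon bases of Sh2d1a (1465 bases) are shared with exons of Tenm1 on the opposite strand, so reads from the shared part cannot be assigned to one gene by strand. The log2 values of Tenm1 lay between 2.40 and 4.04 in the libraries, and those of Sh2d1a between 8.27 and 8.84. The part of Tenm1 reads in the Sh2d1a values was not tested. Ly9 overlaps Cd244a on the opposite strand but shares 0 exon bases with it.

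The start regions of the receptor genes are printed for reference, and no link between them and the responses of the genes was tested. RefSeq promoter windows of GRCm38.p6, from 250 bases before to 50 bases after the transcription start, were found for 4 of the 6 genes, and Ly9 and Sh2d1a were not matched. The windows lie on the plus strand at chr1:171681742-171682041 (Cd48), chr1:171766882-171767181 (Slamf1), chr1:171839447-171839746 (Cd84) and chr1:171917212-171917511 (Slamf6). Capitals mark matches to 4 motifs on either strand. AP-1, the Fos and Jun dimers that act downstream of the antigen receptor, was searched as TGANTCA. The letters for NFAT, the calcineurin-dependent factors, were GGAAA. For the ETS family, common in lymphocytes, they were GGAAG, of which the first 4 bases are shared with NFAT. The TATA box was searched as TATAAA.
Cd48: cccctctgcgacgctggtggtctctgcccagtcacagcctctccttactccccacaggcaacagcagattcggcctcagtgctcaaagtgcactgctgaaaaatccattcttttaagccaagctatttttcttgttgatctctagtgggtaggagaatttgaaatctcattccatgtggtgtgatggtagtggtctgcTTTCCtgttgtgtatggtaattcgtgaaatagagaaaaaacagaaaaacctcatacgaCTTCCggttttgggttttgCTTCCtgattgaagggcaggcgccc
Slamf1: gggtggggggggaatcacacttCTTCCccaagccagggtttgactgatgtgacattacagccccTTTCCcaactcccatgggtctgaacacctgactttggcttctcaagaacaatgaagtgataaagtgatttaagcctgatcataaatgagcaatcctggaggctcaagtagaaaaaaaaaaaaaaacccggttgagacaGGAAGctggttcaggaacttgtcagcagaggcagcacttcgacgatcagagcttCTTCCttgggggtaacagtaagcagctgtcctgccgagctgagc
Cd84: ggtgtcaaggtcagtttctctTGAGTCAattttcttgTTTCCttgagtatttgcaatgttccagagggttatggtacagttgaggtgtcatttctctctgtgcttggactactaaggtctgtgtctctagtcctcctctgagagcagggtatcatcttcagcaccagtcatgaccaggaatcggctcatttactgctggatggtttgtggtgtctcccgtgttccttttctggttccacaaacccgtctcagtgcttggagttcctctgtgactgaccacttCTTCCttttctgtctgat
Slamf6: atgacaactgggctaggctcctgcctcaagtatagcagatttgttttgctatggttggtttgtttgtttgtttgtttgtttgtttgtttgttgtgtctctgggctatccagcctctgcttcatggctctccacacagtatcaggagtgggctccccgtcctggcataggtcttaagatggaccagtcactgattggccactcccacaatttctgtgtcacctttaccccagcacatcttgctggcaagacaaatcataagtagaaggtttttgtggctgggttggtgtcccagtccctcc
The AP-1 letters were present in the Cd84 window alone among the 4, and in 7.81% of all 32851 promoter windows of the same length. The NFAT letters were found once each in Slamf1, Cd84 and Cd48 (61.3% of all windows), and the ETS letters 3 times in Slamf1, 2 times in Cd48 and once in Cd84 (71.4% of all windows). The Slamf6 window held neither, and none of the 4 held a TATA box, which 13.6% of all windows hold. These are matches of letters, not measured binding sites.

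The deposited values are normalised expression on a log2 scale, without read counts, so the depth of each library and its counting error are unknown. Their linear sums ranged from 6782465 to 7419367 per library. Creld1 itself ran from 4.33 to 5.40 in control libraries and from 3.70 to 4.62 in cKO libraries, so the genotypes overlapped over all conditions, with a mean difference of -0.62 in cKO cells (limma adjusted p = 0.344). In unstimulated culture all cKO libraries (3.82 to 4.33) lay below all control libraries (4.81 to 5.40), with a difference of -0.999 ± 0.232 (adjusted p = 0.103). The labels give the 3 libraries of a group one mouse number, and the design text gives 3 per group, so it is not settled whether they came from separate animals. P-values therefore cover library-to-library spread alone, which may be technical. Among markers of other cells, 2 of 10 B cell genes, 2 of 8 myeloid genes in the table and 5 of 10 cytotoxic T and NK cell genes reached the minimum level. The myeloid genes Itgam (mean log2 value 4.47) and Cd68 (4.68) were above the minimum of 3.32. So were the cytotoxic and NK genes Klrd1 (7.82), Cd8b1 (6.41), Prf1 (6.32), Eomes (5.15) and Klrk1 (3.76). Under it were the myeloid genes Lyz2 (2.75), Fcer1g (1.39), Itgax (1.14), Tyrobp (0.83), Adgre1 (0.076) and Csf1r (-0.28). The cytotoxic and NK genes Nkg7 (1.79), Cd8a (1.59), Klrb1c (0.55), Ncr1 (-0.57) and Gzmb (-0.70) were under it as well.

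Measured per kilobase of merged exons, the 6 transcripts covered a wide range of abundance. Cd48 was highest at 632 ± 82.4 linear units per kb (SD, n = 18 libraries of all groups), above 96.8% of the 10803 tested genes with a known length. Ly9 followed at 347 ± 55.9 and Cd84 at 259 ± 37.3 linear units per kb. Slamf6 stood at 169 ± 20.0, Sh2d1a at 72.0 ± 9.32 and Slamf1 at 32.5 ± 8.28 linear units per kb, the last above 35.4% of tested genes. Slamf1 was the scarcest of the 6, at 28.6 and 29.9 linear units per kb in fresh control and cKO cells and at 40.4 and 44.2 after stimulation. With the longest transcript as the length, Cd84 (473 ± 68.2) and Ly9 (462 ± 74.3) exchanged places and did not differ beyond their spread, and the other ranks stayed.

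**Figure D1:**
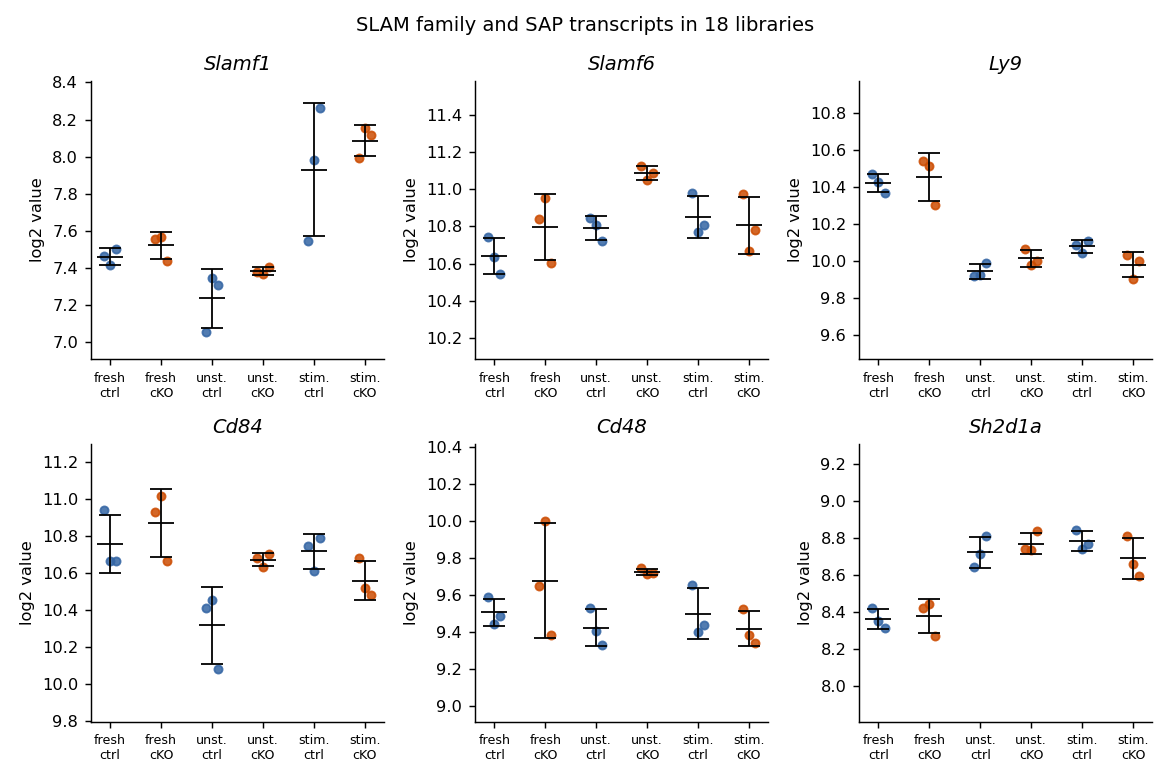
Log2 expression of the 6 genes (vertical axes, each spanning the same 1.5 log2 units) in the 6 groups: fresh, unstimulated (unst.) and stimulated (stim.) cells of control (ctrl, blue) and cKO (orange) mice. Points are single libraries, the horizontal mark is the mean and the bars are ± SD (n = 3); Slamf1 is higher in stimulated cells, Ly9 is lower in all cultured cells and Sh2d1a is higher in all cultured cells.

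Stimulation through CD3 and CD28 raised Slamf1, a self-ligand receptor known to rise on activated T cells, 1.62-fold in control and 1.63-fold in cKO cells. In control cells Slamf1 stood at 7.05, 7.34 and 7.31 (log2) after unstimulated culture and at 7.55, 7.98 and 8.26 after stimulated culture. The cKO libraries stood at 7.38, 7.37 and 7.40 without and at 7.99, 8.15 and 8.12 with stimulation. Every stimulated library lay above every unstimulated library of its genotype, and the control replicate 1 was the lowest in both control groups. The difference was 0.69 ± 0.14 (log2, SE) in control cells (limma adjusted p = 0.0395 over 10877 genes) and 0.70 ± 0.14 in cKO cells (adjusted p = 0.0416). Slamf1 was the 1 member of 6 called in each genotype, whereas 0.349% of tested genes were called in control cells and 0.285% in cKO cells. Averaged over the genotypes, a contrast added after the data were seen, it rose by 0.70 ± 0.10 (adjusted p = 0.00108), with all 6 stimulated above all 6 unstimulated libraries. In that contrast 1.36% of genes were called and 1.30% lay wholly above.

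The single-genotype calls of Slamf1 were close to the threshold. In control cells the adjusted p was 0.211 when only the compared groups were fitted. It ran from 0.10 to 0.236 on leaving out any unstimulated control library or stimulated replicate 2 or 3, and the call held without stimulated replicate 1. In cKO cells it ran from 0.0592 to 0.244 without each of the 6 libraries, and was 0.0899 with quantile normalization and 0.104 with equal library medians. The rise itself stayed between 0.53 and 0.89 in control cells and between 0.67 and 0.75 in cKO cells. The averaged rise stayed between 0.62 and 0.79 whichever library was left out, and remained called.

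No other member passed the test for stimulation in either genotype. Cd84, a self-ligand receptor, was at 10.41, 10.46 and 10.08 in unstimulated and at 10.75, 10.61 and 10.79 in stimulated control libraries. Its stimulated control libraries all lay above the unstimulated ones, by 0.40 ± 0.11 (adjusted p = 0.173), while in cKO cells the difference was -0.11 ± 0.11 (adjusted p = 0.502) with overlapping libraries. In control cells Slamf1, Cd84 and Ly9 lay wholly above, as 10.2% of tested genes did. In cKO cells Slamf6 (-0.28 ± 0.10, adjusted p = 0.192) and Cd48 (-0.31 ± 0.12, adjusted p = 0.200) lay wholly below, as 18.4% of tested genes did. For Sh2d1a the difference was 0.06 ± 0.08 in control and -0.08 ± 0.08 in cKO cells, and its libraries overlapped in both. The median difference of the 6 genes was 0.11 in control and -0.10 in cKO cells, beside -0.02 and 0.01 over all tested genes.

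**Figure D2:**
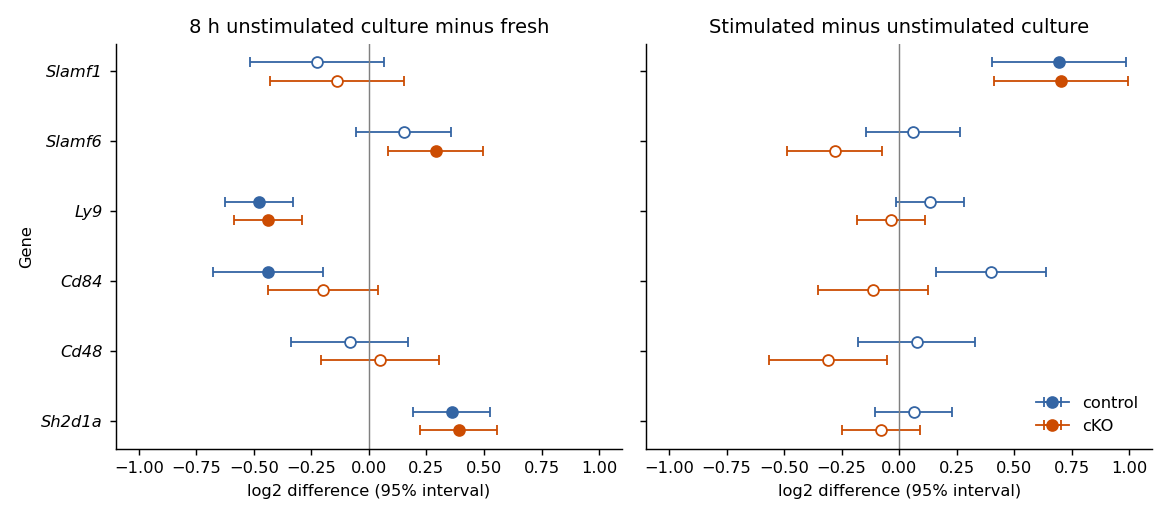
Log2 differences of the 6 genes with 95% intervals from the limma fit, for 8 h unstimulated culture against fresh cells (left) and for stimulated against unstimulated culture (right), in control (blue) and cKO (orange) cells. Filled points have an adjusted p below 0.05; on the right only Slamf1 is filled, at 0.69 and 0.70, and on the left Ly9 and Sh2d1a are filled in both genotypes.

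The test of whether stimulation acted differently in the genotypes called none of the 6 genes. The difference between the genotypes' stimulation effects was 0.01 ± 0.19 for Slamf1 (adjusted p = 0.977, 95% interval -0.40 to 0.42). It was -0.51 ± 0.16 for Cd84 (adjusted p = 0.166), -0.34 ± 0.14 for Slamf6 (0.166) and -0.39 ± 0.17 for Cd48 (0.169), each at an unadjusted p under 0.05. Of all tested genes, 3049 had an unadjusted p under 0.05 in this contrast and 0.00919% were called. Adjusted for GC slope, the dependence of expression on base composition described with the genotype comparison, these 3 differences were -0.19, -0.056 and -0.025. What the slope reflects was not tested.

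The genes most like Slamf1 across the 18 libraries were Tnfrsf9 (Pearson r = 0.94), which encodes the co-stimulatory receptor 4-1BB, Hivep3 (0.94), a zinc finger protein, and Il2ra (0.93), the alpha chain of the IL-2 receptor. The libraries share culture conditions and composition, so these are descriptions. After group means were removed, r was 0.76, 0.72 and 0.71. Il2ra behaved much like Slamf1 among stimulated control libraries, at 6.64, 7.10 and 7.70 for replicates 1, 2 and 3. It rose by 1.20 in control cells (adjusted p = 0.0309) and was 1.09 higher in stimulated cKO cells (adjusted p = 0.0525). The early activation genes Egr2 and Egr3 rose in both genotypes, Egr3 by 1.46 in control and 1.97 in cKO cells. They come from a list of 7 activation genes, of which 6 were tested. With stimulation 3 of these were called in control and 2 in cKO cells, beside 0.349% and 0.285% of all tested genes. Mean Cd69, on that list, was 9.41 and 9.62 in unstimulated, 9.92 and 9.97 in stimulated and 11.35 and 11.45 in fresh control and cKO cells.

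In 8 h of culture without stimulation Ly9 fell and Sh2d1a rose in both genotypes, Cd84 fell in control cells and Slamf6 rose in cKO cells. Of the 6 members 3 were called in control cells, where 29.0% of all tested genes were called, and 3 in cKO cells, where 22.1% were. In each genotype 4 of the 6 did not overlap between fresh and cultured libraries, as did 48.6% of all genes in control and 31.9% in cKO cells. Averaged over the genotypes, again an added contrast, 4 of 6 were called beside 40.3% of all genes, and 3 did not overlap beside 17.5%. Every culture result below therefore belongs to a broad shift of the transcriptome. In bulk RNA, fewer cells of a type and less RNA per cell cannot be told apart.

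Ly9, the cluster's outermost gene and a self-ligand receptor, was at 10.47, 10.43 and 10.37 (log2) in fresh control cells and at 9.92, 9.93 and 9.99 after unstimulated culture. The cKO libraries were at 10.54, 10.52 and 10.30 fresh and at 10.07, 9.98 and 10.00 after culture. All fresh libraries lay above all cultured ones. Ly9 fell by 0.48 in control cells (SE 0.07, adjusted p = 0.000134) and by 0.44 in cKO cells (SE 0.07, adjusted p = 0.000313). It remained low with stimulation, at 10.09, 10.04 and 10.11 in control and 10.03, 9.91 and 10.00 in cKO cells. Stimulated cells were thus below fresh cells as well, by 1.27-fold in control (adjusted p = 0.00247) and 1.39-fold in cKO cells (adjusted p = 0.000158).

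Sh2d1a moved the other way. It was at 8.42, 8.35 and 8.31 in fresh and 8.64, 8.72 and 8.81 in unstimulated control cells. Its cKO values were 8.42, 8.44 and 8.27 in fresh cells and 8.74, 8.73 and 8.84 after unstimulated culture. No cultured library overlapped a fresh one. SAP transcripts rose by 0.36 ± 0.08 in control cells (adjusted p = 0.00347) and by 0.39 ± 0.08 in cKO cells (adjusted p = 0.00226), which is 1.28-fold and 1.31-fold. With stimulation Sh2d1a was at 8.84, 8.74 and 8.77 in control and 8.81, 8.66 and 8.60 in cKO cells. The excess over fresh cells was 0.42 ± 0.08 (adjusted p = 0.00145) and 0.31 ± 0.08 (adjusted p = 0.00882). The call for unstimulated culture against fresh cells was lost in control cells when libraries were scaled to equal medians (0.29, adjusted p = 0.0617). In cKO cells that call was lost when only the compared groups were fitted (adjusted p = 0.0677). The call for stimulated against fresh cKO cells was lost under 2 settings (adjusted p = 0.128 and 0.129).

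Cd84 fell and Slamf6 rose in culture, each passing the test in 1 genotype. Cd84 was at 10.94, 10.67 and 10.67 in fresh control cells, above the cultured values of 10.41, 10.46 and 10.08 in every library. It fell by 0.44 in control cells (SE 0.11, adjusted p = 0.00888), a call lost without fresh replicate 1 (adjusted p = 0.0509) or unstimulated replicate 3 (adjusted p = 0.0510). In cKO cells Cd84 was at 10.93, 11.02 and 10.67 fresh and at 10.68, 10.63 and 10.70 cultured, with overlap, and differed by -0.20 ± 0.11 (adjusted p = 0.234). Slamf6, whose product is a self-ligand receptor of T and NK cells, was at 10.84, 10.95 and 10.60 in fresh and 11.12, 11.05 and 11.09 in cultured cKO cells. All 3 cultured cKO libraries were above the fresh ones, and Slamf6 rose by 0.29 ± 0.10 (adjusted p = 0.0426). That call was lost without any cKO unstimulated library or cKO fresh replicate 1 or 3 (adjusted p from 0.0707 to 0.129) and under 4 other settings (0.0571 to 0.162). In control cells Slamf6 was at 10.74, 10.64 and 10.54 fresh and 10.85, 10.81 and 10.72 cultured, which overlapped (0.15 ± 0.10, adjusted p = 0.250). Averaged over genotypes, Cd84 fell by 0.32 (adjusted p = 0.00457) and Slamf6 rose by 0.22 (adjusted p = 0.0174). Neither culture effect was called as different between the genotypes, the interaction being 0.24 ± 0.16 for Cd84 (adjusted p = 0.843) and 0.14 ± 0.14 for Slamf6 (adjusted p = 0.850), and no tested gene was called there (0% of genes; 545 at an unadjusted p under 0.05).

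Cd48, the ligand of Cd2 and Cd244, did not pass the culture test. It was at 9.59, 9.45 and 9.49 in fresh and 9.53, 9.41 and 9.33 in cultured control cells, and the groups overlapped (-0.08 ± 0.12, 95% interval -0.34 to 0.17). In cKO cells it was at 9.65, 10.00 and 9.39 fresh and at 9.75, 9.72 and 9.72 cultured, a difference of 0.05 ± 0.12. Fresh replicates 2 and 3 were the highest and the lowest of these 6 cKO libraries. Slamf1 lay lower in all unstimulated than in all fresh libraries of each genotype. Its differences were -0.23 ± 0.14 in control and -0.14 ± 0.14 in cKO cells and did not pass the test (adjusted p = 0.225 and 0.529). From fresh to stimulated cells Slamf1 rose by 0.47 ± 0.14 in control (adjusted p = 0.0243) and 0.56 ± 0.14 in cKO cells (adjusted p = 0.00658). The control call was lost without any fresh library or stimulated replicate 2 or 3 (adjusted p from 0.0540 to 0.130), and the difference was 0.30 without stimulated replicate 3. In these comparisons with fresh cells 3 of 6 members were called in control and 4 of 6 in cKO cells, beside 18.8% and 30.3% of all genes, and 4 and 3 did not overlap, beside 34.2% and 32.7%. The fourth was Cd84, which fell by 0.31 with overlapping libraries (adjusted p = 0.0474), a call lost without cKO fresh replicate 1 or 2 or stimulated replicate 2 or 3 (adjusted p from 0.132 to 0.195) and under 7 other settings.

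Markers of other cells also changed in culture, and their part in these results was not tested. Of the memory T cell markers 5 of 8 reached the minimum level, and their summed linear level was 1601 to 1753 in fresh and 1047 to 1366 in cultured libraries. Cd44, a receptor that marks memory cells and whose product was used in the sort, fell by 1.35 in control and 1.16 in cKO cells. All 6 regulatory T cell markers reached the minimum, with sums of 850 to 982 in fresh and 580.2 to 870 in cultured libraries. Such sums weigh abundant genes most. Of these 6 genes 1 was called higher and 2 lower in unstimulated control culture, and 1 higher and 1 lower in cKO culture. The myeloid sum was 72.4 to 99.1 in fresh and 49.2 to 64.0 in cultured libraries, with Csf1r and Adgre1 near a log2 value of 0. Itgam fell by 0.92 in control (adjusted p = 0.000449) and by 0.81 in cKO culture (adjusted p = 0.00139), and Cd68 fell by 0.70 in control culture (adjusted p = 0.0189) and differed by -0.43 in cKO culture (adjusted p = 0.155). The B cell sum overlapped, at 47.8 to 86.4 in fresh and 51.0 to 79.3 in cultured libraries, and so did that of cytotoxic T and NK cells, at 421 to 482 and 427 to 523. Single genes of these lists did change in unstimulated culture. Of 2 tested B cell genes 1 was called higher in control and 0 in cKO cells. Of 5 tested cytotoxic and NK genes 1 was higher and 2 lower in control, and 2 were higher and 2 lower in cKO cells. Of 5 tested memory T cell genes 3 were lower in control and 2 in cKO cells, and 0 were higher. Of 6 tested naive T cell genes 4 were higher in control and 2 in cKO cells, and 0 were lower. Of all tested genes 29.0% and 22.1% were called there.

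The comparison of cKO with control cells called none of the 6 genes in any condition in the fit of all groups, nor averaged over conditions, where 0.0184% of all tested genes were called. Without cKO fresh replicate 3 the average called 2 of the 6 and 1617 of all genes, and the fresh comparison 0 of the 6 and 1193 of all genes. In fresh cells the differences ran from 0.02 (Sh2d1a) to 0.17 (Cd48), with adjusted p from 0.790 to 0.950 and 0.00919% of all tested genes were called. The libraries of all 6 overlapped there, while 4.31% of all genes did not. Single libraries moved these values, the Cd48 difference being 0.010 without cKO fresh replicate 2 and 0.32 without cKO fresh replicate 3, and that of Cd84 (0.11) being 0.041 and 0.22. In stimulated culture they ran from -0.16 (Cd84) to 0.16 (Slamf1), each with an adjusted p of 0.974, and 0% of all genes were called (160 at an unadjusted p under 0.05). Ly9 was there the one member whose cKO libraries all lay below control, by a difference of -0.10 ± 0.07, as 3.14% of all genes did. The 95% intervals reached 0.43 for Cd48 in fresh cells and 0.45 for Slamf1 in stimulated cells, so differences of that size were not excluded by this design.

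After unstimulated culture 4 of the 5 receptors had all 3 cKO libraries above all 3 control libraries, but so did 23.5% of all tested genes, and 52.1% did not overlap in one direction or the other. Cd84 was at 10.41, 10.46 and 10.08 in control and 10.68, 10.63 and 10.70 in cKO cells, a difference of 0.35 ± 0.11 (adjusted p = 0.103). Slamf6 was at 10.85, 10.81 and 10.72 in control and 11.12, 11.05 and 11.09 in cKO cells, a difference of 0.29 ± 0.10 (adjusted p = 0.103). Cd48 was at 9.53, 9.41 and 9.33 in control and 9.75, 9.72 and 9.72 in cKO cells, a difference of 0.30 ± 0.12 (adjusted p = 0.110). The cKO values of each gene were tight, and the control values were spread below them. Slamf1 was the fourth, with a difference of 0.15 ± 0.14 (adjusted p = 0.430), while Ly9 (0.07 ± 0.07) and Sh2d1a (0.05 ± 0.08) overlapped. The limma fit of all 6 groups called 0 genes in this comparison, although 3 of the 6 members and 3606 of all tested genes had an unadjusted p under 0.05. The call depended on the model: fitting only the compared groups called Cd84, Slamf6 and Cd48 and 3737 of all genes, a block for runs of library numbers called Cd84 (adjusted p = 0.0496) and Slamf6 (adjusted p = 0.0486) and 887 genes, and library weights called 4 members and 6125 genes, while the GC slope covariate, with or without the block, called 0 of both.

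The libraries differed in how expression depended on base composition, and several members moved with it. For each library a GC slope was fitted across 10803 tested genes, in log2 units for each SD of GC content of the transcript. After unstimulated culture it was -0.11 ± 0.09 (SD, n = 3) in control and -0.39 ± 0.06 in cKO libraries, which did not overlap. In the other groups its means were -0.27 and -0.38 (fresh control and cKO) and -0.26 and -0.17 (stimulated control and cKO), and the genotypes overlapped there. All 6 member transcripts had a GC content below the tested genes' median of 49.2%, from 36.9% for Sh2d1a to 48.8% for Ly9.

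Within groups, the level of Slamf6 fell as the GC slope rose, with Pearson's r = -0.91 and Spearman's rho = -0.91 over 18 libraries after group means were removed (permutation of the slope within groups, adjusted p = 0.00075 and 0.00039 over the 6 genes). Cd48 gave r = -0.90 and rho = -0.89 (permutation adjusted p = 0.00075 and 0.00039), and Cd84 gave r = -0.86 and rho = -0.89 (permutation adjusted p = 0.00276 and 0.00336). Without the 2 libraries farthest from the median slope, r was -0.86 for Slamf6, -0.89 for Cd48 and -0.82 for Cd84. The relation was weaker for Ly9 (r = -0.70, rho = -0.63, permutation adjusted p = 0.0555 and 0.0436) and Sh2d1a (r = -0.65, rho = -0.51, permutation adjusted p = 0.0315 and 0.0801), and without those 2 libraries r was -0.41 and -0.49. Slamf1 did not follow it (r = 0.19, rho = 0.26, permutation adjusted p = 0.543 and 0.379, and r = 0.47 without the 2 libraries), although its transcript, at 40.6% GC, is poorer in GC than that of Cd48 (42.0%). Such relations were common, since 6.08% of tested genes had an r as low as that of Slamf6, and 11.3% as low as that of Cd84. These shares cover tested genes of every GC content. The slope was fitted across the same tested genes, members included, so genes poor in GC tend toward a negative relation with it. The permutation does not allow for this, and its p-values therefore do not set the members apart from other genes of like GC content.

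**Figure D3:**
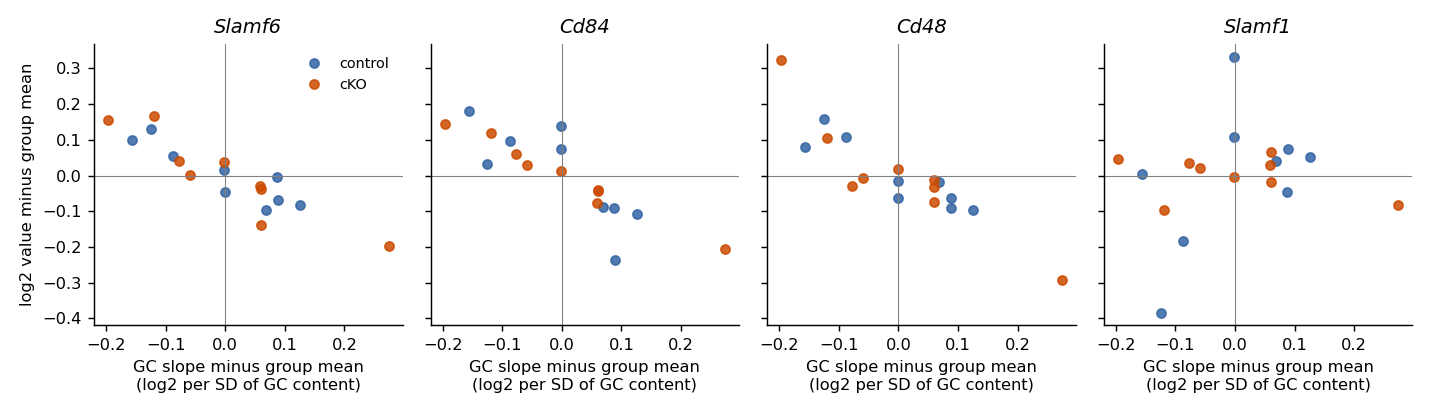
Each library's log2 value minus its group mean (vertical) against its GC slope minus the group mean (horizontal, log2 units for each SD of GC content) for 4 receptors, with control libraries in blue and cKO in orange, 18 points per panel. Slamf6, Cd84 and Cd48 fall along the slope (r = -0.91, -0.86 and -0.90), and Slamf1 does not (r = 0.19).

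After adjustment for the GC slope, the genotype differences in unstimulated culture became 0.11 ± 0.07 for Cd84 (adjusted p = 0.830), 0.079 ± 0.058 for Slamf6 (adjusted p = 0.852) and 0.030 ± 0.072 for Cd48 (adjusted p = 0.959). Slamf1 gave 0.21 ± 0.15 (adjusted p = 0.846). The slopes of the genotypes did not overlap in that condition, and they were computed from the same expression values. A genotype effect and an effect of the slope therefore cannot be told apart there. For culture, Ly9 and Sh2d1a stayed near their values without the covariate: Ly9 fell by 0.42 in control cells and by 0.44 in cKO cells. Sh2d1a rose by 0.42 and 0.39. Slamf6 then rose in both genotypes, by 0.27 in control (adjusted p = 0.000285) and 0.28 in cKO cells (adjusted p = 9.81e-05). Cd84 likewise fell in both, by 0.30 (adjusted p = 0.000896) and 0.21 (adjusted p = 0.008). In control culture the Cd84 difference without the covariate was -0.44, and that of Cd48 went from -0.084 to 0.070 with it. With the covariate 4668 of all tested genes were called in control culture and 4936 in cKO culture, against 3151 and 2408 without it. Slamf1 still rose with stimulation, by 0.73 in control (adjusted p = 0.004) and 0.65 in cKO cells (adjusted p = 0.0381), and Cd84 was called in control cells alone at 0.27 (adjusted p = 0.0254). For stimulation 321 of all tested genes were called in control and 72 in cKO cells with the covariate, against 38 and 31 without it.

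**Figure D4:**
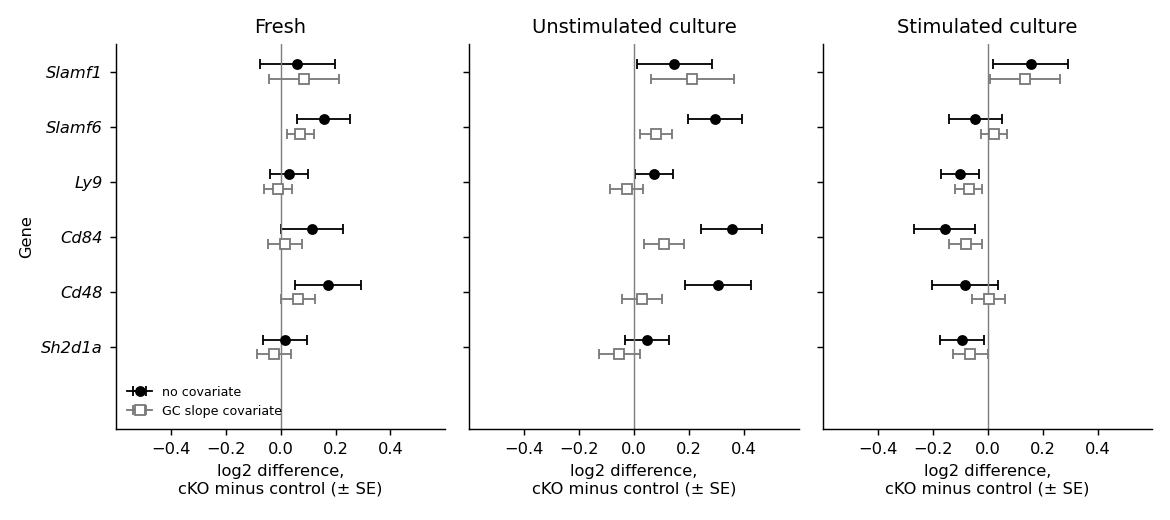
Log2 difference of cKO minus control cells (horizontal, ± SE) for the 6 genes in fresh cells, unstimulated culture and stimulated culture, without a covariate (black circles) and adjusted for the libraries' GC slopes (open grey squares). After unstimulated culture Cd84, Slamf6 and Cd48 stand at 0.35, 0.29 and 0.30 without and at 0.11, 0.079 and 0.030 with the covariate. The GC slopes of the genotypes did not overlap in that condition, so slope and genotype cannot be told apart there.

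The neighbours of the cluster did not share one response. Within 200 kb of the cluster's ends and inside it, 11 further genes were tested. Averaged over genotypes, 5 of them rose and 1 fell in unstimulated culture, where 40.3% of all tested genes were called. Arhgap30 fell by 0.40 (adjusted p = 5.15e-06), close to the change of Ly9, while Dcaf8, a substrate receptor of a ubiquitin ligase, rose by 0.50 (adjusted p = 3.85e-06) and Tstd1 by 0.64 (adjusted p = 0.000427). With stimulation 1 of the 11 rose in the averaged contrast, where 1.36% of all tested genes were called, and it was Slamf7, itself a SLAM receptor.

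**Figure D5:**
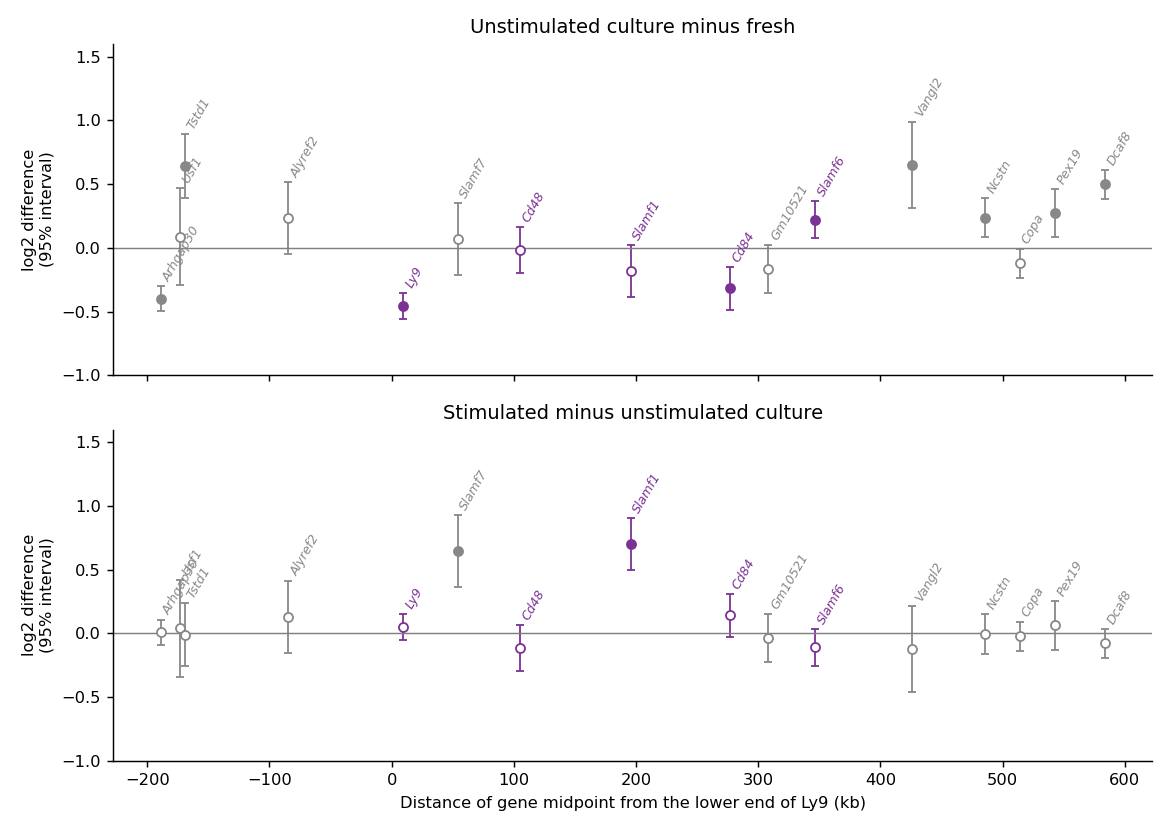
Log2 differences averaged over genotypes, with 95% intervals (vertical), for the tested genes of the SLAM cluster (purple, members; grey, other genes) against the distance of each gene's midpoint from the lower end of Ly9 in kb (horizontal), for unstimulated culture against fresh (top) and stimulated against unstimulated culture (bottom). Filled points have an adjusted p below 0.05; in the lower panel only Slamf1 (0.70) and Slamf7 (0.65) are filled.

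Slamf7, which signals with another adaptor than SAP in many cells, was expressed at a much lower level per length than the 5 receptors, at 5.70 to 9.94 linear units per kb in group means. It was at 4.51, 4.65 and 4.92 (log2) in unstimulated and 5.41, 5.24 and 5.34 in stimulated control cells. Among cKO libraries it was at 4.84, 4.88 and 4.79 without and 5.48, 5.31 and 5.70 with stimulation. All stimulated libraries were above the unstimulated ones, and Slamf7 rose by 0.65 ± 0.13 averaged over genotypes (adjusted p = 0.0205). In each genotype alone it did not pass for stimulation. Cd2, the T cell receptor for Cd48, rose by 0.21 ± 0.05 in the averaged contrast (adjusted p = 0.0362), with 6 of 6 stimulated libraries above all unstimulated ones. Cd244, another receptor for Cd48, was listed between 0.54 and 0.92, under the minimum. Of the 8 relatives looked for, 3 were in the table and 2 were tested, Slamf7 and Cd2. Both were called in the averaged contrast, beside 1.36% of all tested genes.

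Among 18 genes of signalling downstream of SLAM receptors and SAP, all tested, 5 fell and 0 rose in unstimulated control culture and 4 fell and 0 rose in cKO culture. These shares are near those of all tested genes called there, 29.0% and 22.1%. The list's median difference was -0.22 in control and -0.29 in cKO cells, beside 0.04 and -0.02 over all tested genes. Bcl10, an adaptor of NF-kB activation, fell by 0.50 in both genotypes (adjusted p = 0.000149 and 0.000154). Prkcq, the kinase PKC-theta that SAP can bring to Slamf1, fell by 0.45 (adjusted p = 0.000871) and 0.29 (adjusted p = 0.0174). Inpp5d, the phosphatase SHIP1 that is recruited to SLAM tails, fell by 0.32 in control (adjusted p = 0.0127) and 0.38 in cKO culture (adjusted p = 0.00609). Fyn, the kinase bound by SAP, fell by 0.34 in cKO cells (adjusted p = 0.0107) and by 0.26 in control cells (adjusted p = 0.0371), and Ptpn6, the phosphatase SHP-1, by 0.53 in control cells (adjusted p = 0.0201). With stimulation Malt1, the protease that works with Bcl10, rose by 0.62 in control cells (adjusted p = 0.0309) and was the 1 gene called of 18, beside 0.349% of all tested genes. None was called in cKO cells, where Malt1 differed by 0.20 ± 0.12. Averaged over genotypes, where 1.36% of all tested genes were called, 3 of 18 rose, Malt1 by 0.41 (adjusted p = 0.0189), Fyn by 0.35 (adjusted p = 0.00805) and Ptpn6 by 0.65 (adjusted p = 0.00536).

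Of 10 genes of programmes known to need SAP in CD4+ T cells, 7 were tested. With stimulation Icos, a co-stimulatory receptor of follicular helper cells, was the 1 called in control cells, where 0.349% of all tested genes were called. It was at 9.71, 9.64 and 9.58 in unstimulated and 10.34, 10.58 and 10.49 in stimulated control cells, and rose by 0.83 ± 0.13 (adjusted p = 0.0115). In cKO cells it was at 9.83, 9.81 and 9.87 without and 10.44, 10.23 and 10.38 with stimulation, a difference of 0.52 ± 0.13 in cells where 0 of 7 were called. Its stimulated libraries lay above the unstimulated ones in both genotypes, and the difference between the genotypes was -0.31 ± 0.19. Averaged over genotypes 3 of 7 rose, beside 1.36% of all tested genes called in either direction. Icos rose by 0.67 (adjusted p = 0.00108), the inhibitory receptor gene Pdcd1 by 0.99 (adjusted p = 0.0240) and Bcl6, a transcription factor of follicular helper cells, by 0.60 (adjusted p = 0.0280). In culture Cd40lg, the ligand with which T cells activate B cells, fell by 0.91 in control (adjusted p = 9.26e-07) and 0.78 in cKO cells (adjusted p = 4.91e-06). Maf, a transcription factor of helper cells, fell by 0.62 in control cells (adjusted p = 0.0133), and Gata3, which drives type 2 helper cells, by 0.77 in cKO cells (adjusted p = 0.0220). The list's median was -0.21 in control and -0.046 in cKO culture. Of the 7 tested genes 2 fell and 0 rose in the culture of each genotype, beside 29.0% of all tested genes called in control and 22.1% in cKO culture.

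The other members each resembled different genes across the 18 libraries. Ly9 was most like Srsf6 (Pearson r = 0.99), a splicing factor, Sub1 (0.98), a transcription cofactor, and Stk17b (0.98), a kinase. Sh2d1a was most like Rbm4b (0.97), Slc28a2 (0.97), a nucleoside transporter, and Vcp (0.96), an ATPase of protein turnover. Slamf6 was most like Cbx1, Wrn and Tmem65 (0.96 each), Cd84 like Kdm7a (0.96), Naa15 (0.96) and Med14 (0.94), and Cd48 like Rab6a (0.94), Virma (0.93) and Tmem87b (0.93). The libraries share their conditions and their GC slopes, so these values describe the 18 libraries and carry no test. Between members, Ly9 and Sh2d1a had r = -0.79 over all libraries and 0.65 once group means were removed, so their opposite course lay between the groups. Slamf6 and Cd48 had r = 0.69 over all and 0.86 within groups.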

How the data were processed

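RNA sequencing of 18 libraries was taken from 1 deposited table of 15137 genes. Libraries were made from 10 ng of RNA with a TruSeq kit and read for 75 bp from one end, per the labels' protocols. CASAVA 1.8, HISAT2 2.1.0, SAMtools 1.4, Partek 6.6, DESeq2 and mm10 are named in the submitters' processing notes, without roles. The values deposited by the authors are log2 normalised expression. This scale was inferred from the values, and neither its transformation nor the gene annotation used is stated in the labels. Values ran down to -1.36, and some genes under the minimum varied little over the libraries, such as Blk (-0.82 to -0.58) and Cd244 (0.54 to 0.92). Whether differences of low genes are compressed on this scale was not tested. The table is recorded under other units because its headers are numbers.

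Groups came from the labels' titles. The 10877 genes that reached 10 on the linear scale in at least 3 libraries entered 1 limma 3.58.1 fit (R 4.3.3) of 6 group means, moderated by empirical Bayes with a variance trend (12 residual degrees of freedom), two-sided tests, Benjamini-Hochberg adjustment over all tested genes and a threshold of 0.05. No pseudocount was added to the log2 values. The scripts were tested on simulated data. Lengths, GC content and positions came from GENCODE M21, which matched 15031 symbols. Within-group relations to the GC slope used 100000 permutations.

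Named genes were the 6 members, Creld1, list genes that passed (up to 4 of smallest p per list and comparison), the 3 most similar genes per member without clone-named genes, and genes within 200 kb of the cluster. Fyn in control culture, Egr2, Egr3, Cd44 and the other marker genes fall outside this rule and were named after their values were seen. The members and lists were chosen with earlier results of these data known. Alternatives were other filters, pseudocounts and scalings, fits without a variance trend or of the compared groups only, weights for libraries, a block for consecutive library numbers (no label calls these a batch), the GC slope, and leaving out each library.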

Additional observations from a re-analysis of the deposited data

How the results depend on the processing

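The titles give library numbers in 3 runs, each with 1 library of every group, and no label says what a run shares. The fit with a block for these runs was therefore an alternative, and replicate 1 of every group lay below its group's mean GC slope. Of 1146 recomputed values for single members, 1018 kept their direction and side of the threshold, 47 lost the call, 34 gained it and 47 reversed. Depth is unknown and limits low genes in a way that could not be measured.

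Among counts of members called, library weights gave 4 for genotype in fresh cells, 4 in unstimulated culture, 2 averaged over conditions, 3 for stimulation in each genotype and averaged, and 4 for the stimulation interaction, where all genes called also rose (from 1 to 5512 for fresh genotype and from 0 to 6125 for unstimulated genotype). Fitting only the compared groups gave 3 for unstimulated genotype (3737 of all genes), 0 for stimulation in control, 3 for stimulation in cKO, 1 for culture in cKO, 2 for stimulated against fresh cKO cells and 2 for the interaction. The library-number block gave 2 for unstimulated genotype (887 of all genes). Quantile normalization and equal medians gave 0 for stimulation in cKO, and equal medians 2 for stimulated against fresh cKO cells. The GC slope, with or without the block, gave 2 for stimulation in control cells (321 and 240 of all genes against 38) and 2 averaged over genotypes.

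Leaving out 1 library gave 0 to 1 members for stimulation in control, 0 in cKO, 2 to 3 for culture in either genotype, 2 to 3 and 3 to 5 for stimulated against fresh control and cKO cells, 0 to 2 for genotype averaged over conditions, and 0 for genotype in each condition and both interactions. Calls of single members were also lost for Slamf6 in cKO culture without a filter (adjusted p = 0.0571), without a variance trend (0.0586), with equal medians (0.140) and with only the compared groups (0.162), for Slamf6 in averaged culture with equal medians (0.129), for Slamf1 in stimulated against fresh control cells with only the compared groups (0.119), and for Sh2d1a in stimulated against fresh cKO cells with equal medians (0.129) or only the compared groups (0.128). The Cd84 call there was lost under 7 settings, with adjusted p from 0.0558 to 0.170. All genes called ran from 4 to 78 for stimulation in control and from 11 to 34 in cKO cells, from 1 to 1193 for genotype in fresh cells and from 1 to 1617 for genotype averaged over conditions.

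Directions reversed with the GC slope, and with the slope and block, for these log2 differences. Genotype in fresh cells became -0.0082 and -0.0075 for Ly9 and -0.024 and -0.028 for Sh2d1a; in unstimulated culture -0.026 and -0.025 for Ly9 and -0.054 and -0.065 for Sh2d1a; in stimulated culture 0.023 and 0.013 for Slamf6 and 0.0044 and 0.0092 for Cd48. Stimulation in control cells became -0.055 and -0.039 for Slamf6 and -0.070 and -0.078 for Cd48, and in cKO cells 0.041 and 0.039 for Ly9, 0.079 and 0.070 for Cd84, and 0.00012 and 0.0086 for Sh2d1a. Culture in control cells became 0.070 and 0.079 for Cd48. The stimulation interaction became -0.076 for Slamf1 with the slope and 0.0061 for Sh2d1a with both. For Slamf1 it was also -0.17 with quantile normalization, -0.15 with equal medians and -0.11 with library weights, which gave -0.026 for stimulated genotype. Leaving out 1 library moved some small differences across 0. Genotype in fresh cells ran from -0.013 to 0.11 for Ly9 and from -0.015 to 0.070 for Sh2d1a, and in stimulated culture from -0.035 to 0.32 for Slamf1 and from -0.13 to 0.024 for Slamf6. Stimulation ran from -0.0054 to 0.10 for Slamf6 and from -0.0030 to 0.13 for Cd48 in control cells and from -0.063 to 0.0021 for Ly9 in cKO cells. Culture in cKO cells ran from -0.099 to 0.21 for Cd48, and the interaction from -0.18 to 0.18 for Slamf1. The cause of these changes was not tested.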
